A study of Mus musculus with 7 samples.

Results

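The genes described here encode the subunits of the oxidative phosphorylation system, in RNA-seq of the cervical spinal cord of mice that carry a human mutant SOD1 transgene and either have or lack Neat1. They were chosen by symbol among protein-coding genes of GENCODE M21 (mt-Nd, mt-Co, mt-Cytb and mt-Atp genes of the mitochondrial genome, and Nduf, Sdh, Uqcr, Cox4 to Cox8 and Atp5 genes of the nuclear genome) with at least 1 CPM (counts scaled by the library total) in all 7 libraries. Of the 55487 rows of the count table, 98 matched the symbols and 91 passed the CPM floor. These 91 members were 44 genes of complex I, 4 of complex II, 9 of complex III, 16 of complex IV and 18 of complex V. The mitochondrial genome encodes 12 of them and the nuclear genome 79. All 91 were among the 18449 genes tested between genotypes.

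The 7 libraries came from 7 mice aged 8 weeks, 4 of the Neat1-KO; hSOD1G93A genotype (Neat1-/-) and 3 of the Neat1-WT; hSOD1G93A genotype (Neat1+/+). Every mouse in both groups carried the human SOD1 transgene with the mutation named in hSOD1G93A, a model of amyotrophic lateral sclerosis. Thus the comparison is of Neat1 loss within the transgenic background, with no non-transgenic mice. The knockout is constitutive, and the mice came from crosses that mixed the Neat1 line with hemizygous hSOD1G93A males bred from B6/SJLF1 females. The methods name both sexes and the labels give none, and Xist, which female cells express, had 0 to 4 counts in every library. The tissue was taken whole, so fewer cells of a type and less RNA per cell cannot be told apart. Totals ran from 19661878 to 26031517 counts. Neat1 itself, the long non-coding RNA removed by the knockout, had 99 to 134 counts in the Neat1-KO libraries and 1725 to 2323 in the Neat1-WT libraries (log2 fold change -4.25, SE 0.15, edgeR adjusted p = 1.52e-08).

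Oxidative phosphorylation is carried out in the inner mitochondrial membrane. Complexes I and II pass electrons from NADH and succinate to ubiquinone, complex III passes them on to cytochrome c, complex IV reduces oxygen, and complex V, the ATP synthase, uses the resulting proton gradient to make ATP. Complex II is encoded wholly in the nucleus, and the others combine subunits from both genomes, whose transcription is separate: the mitochondrial genome is read as long transcripts from both strands that are cut into single RNAs. Neurons draw most of their ATP from this system, and damaged mitochondria are a known feature of motor neurons in SOD1 mutant mice.

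None of the 91 members differed between genotypes past the threshold of the study, an adjusted p under 0.1 with an absolute log2 fold change over 0.58 (quasi-likelihood test of edgeR, p adjusted by the Benjamini-Hochberg method). Over all genes tested, 6 of 18449 passed it (0.0325%). The adjusted p of the members ran from 0.992 to 0.999. At an unadjusted p under 0.05, 0 members were higher in Neat1-KO, where 2.24% of all genes were, and 1 was lower, where 2.4% were. No member had all Neat1-KO libraries above all Neat1-WT libraries, against 2.91% of all genes, and none had all of them below, against 2.57%. The estimates were precise for most members. The 95% interval of the log2 fold change lay within 0.58 of zero on either side for 78 of the 79 nuclear-genome members, with Ndufa4l2 (up to 0.75) as the exception, and for 7 of the 12 mitochondrial-genome members. Therefore, for these 85 genes a change of the size the threshold asks for lay outside the interval, and for the other 6 it did not.

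**Figure D1:**
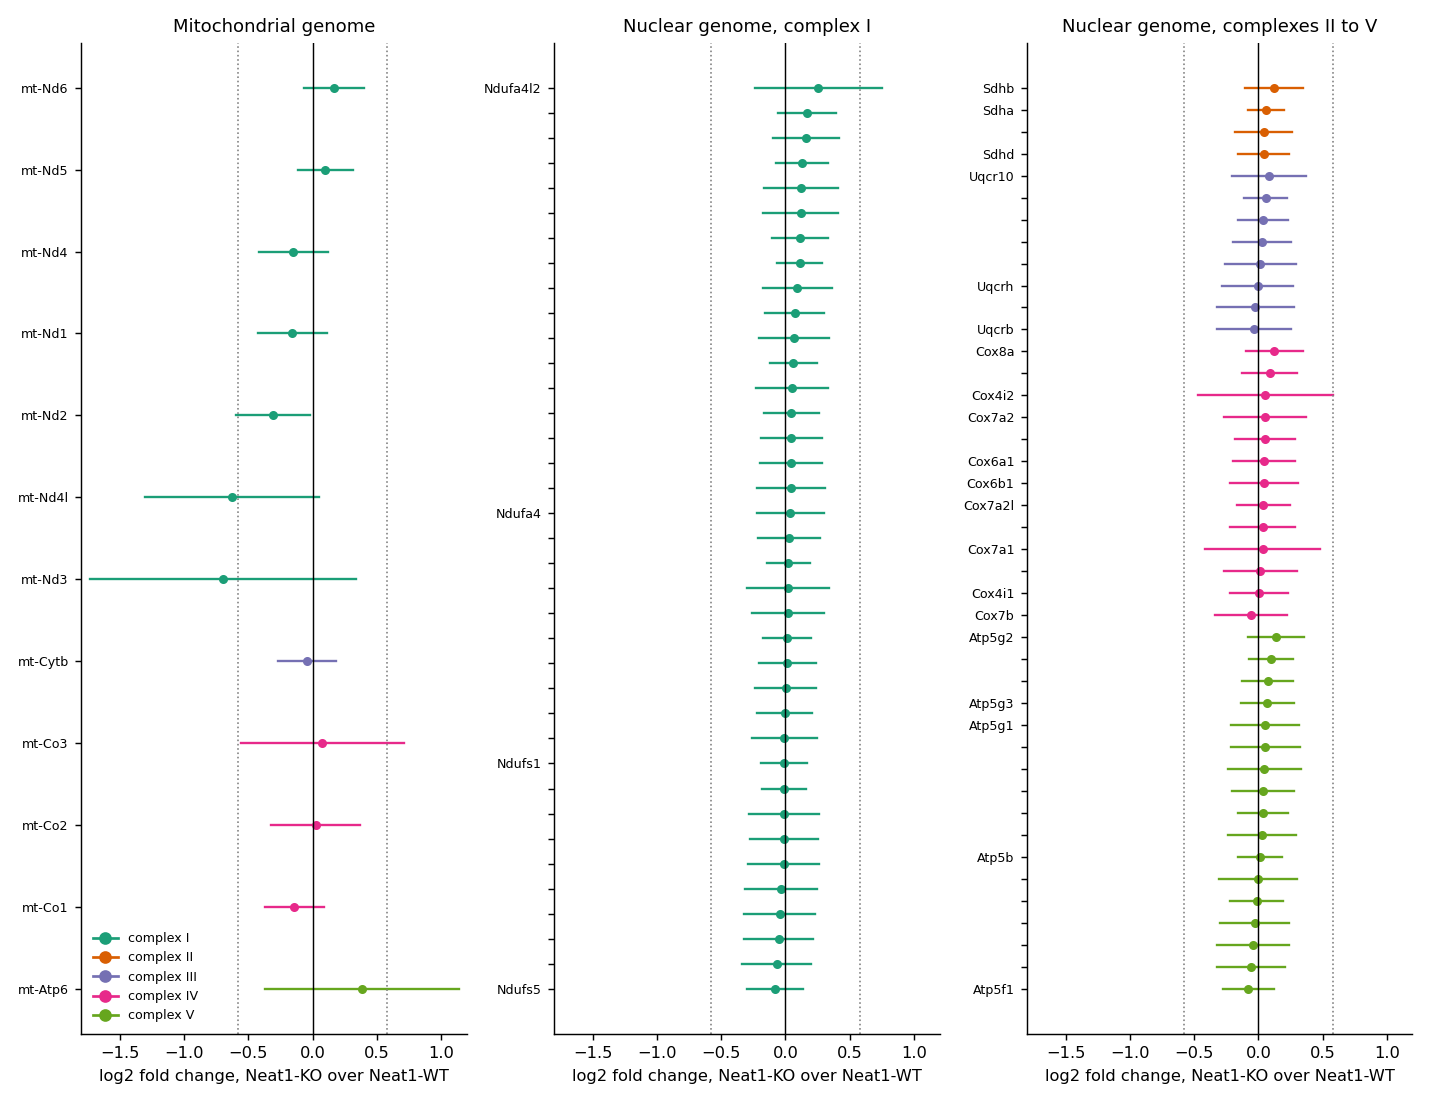
Log2 fold change of Neat1-KO over Neat1-WT (point) with its 95% interval (line) for the 91 members, by genome and complex; dotted lines mark 0.58 on either side, and only genes picked by the naming rule carry a label. The 5 mitochondrial intervals that reach past 0.58 belong to mt-Nd2, mt-Nd3, mt-Nd4l, mt-Co3 and mt-Atp6, and mt-Nd2 is the only member whose interval does not include 0.

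Transcripts of the mitochondrial genome made up 3.69% to 5.24% of all counts, and the 12 members among them split into abundant and scarce ones. Per length (RPKM, which is CPM divided by the kilobases of the principal transcript), mt-Co1, the catalytic subunit of complex IV, was highest at a mean of 10451, with 8696 in the lowest library and 12628 in the highest. mt-Cytb, the only mitochondrially encoded subunit of complex III, had a mean of 6100 (5179 to 6905). The complex I subunits mt-Nd1, mt-Nd2, mt-Nd6, mt-Nd4 and mt-Nd5 had means of 5180, 3154, 2355, 2253 and 2133, and all are in the membrane arm that pumps protons. The range of mt-Nd1 over libraries (4033 to 6546) overlaps those of mt-Cytb and mt-Nd2 (2364 to 4250), and the latter overlaps those of mt-Nd6 (1799 to 2675), mt-Nd4 (1802 to 2739) and mt-Nd5 (1707 to 2371). Of these genes, only mt-Co1 had a range over libraries that overlapped no other. Within each library, mt-Cytb still stood above mt-Nd1, and mt-Nd1 above mt-Nd2, whose counts were 0.568 to 0.749 of those of mt-Nd1. In each library mt-Nd2 also stood above mt-Nd6, mt-Nd4 and mt-Nd5, whose own order changed between libraries. Thus these 7 genes held 99.6% to 99.7% of the counts of the mitochondrial members in each library.

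The other mitochondrial genes were far below them on the same per-length scale. mt-Co2 averaged 57.3 RPKM, mt-Co3 52.3, mt-Nd3 51.6, mt-Atp6 49.9 and mt-Nd4l 10.6. mt-Atp8, the small subunit of the membrane part of ATP synthase, had 0.04 to 0.37 CPM and so is not a member. mt-Co2 and mt-Co3 encode core subunits of the same enzyme as mt-Co1, yet their level per length was that of a minor transcript. Each of the 5 scarce members matches, over nearly its whole length, a copy in a block of nuclear-embedded mitochondrial sequence on chromosome 1, and the authors counted uniquely mapped reads only. A read that fits both places equally well is left out of such counts.

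The block lies on the minus strand of chromosome 1 (GRCm38) between 24611535 and 24616197. Its annotated copies are Gm28661 for mt-Co2 (100% identity over 681 bases), Gm10925 for mt-Atp6 (100% over 678), Gm28437 for mt-Co3 (100% over 783), Gm10222 for mt-Nd4l (100% over 294) and Gm28438 for mt-Nd3 (99.71% over 345). It also holds copies of parts of 2 abundant genes, Gm28439 (100% over 876 bases of mt-Nd4) and Gm29216 (99.79% over the last 483 bases of mt-Co1). Therefore the levels of the scarce genes, and of mt-Nd4 and mt-Co1 over the stretches they share, are those of uniquely mapped reads, and no conclusion on subunit balance within a complex can be read from them. In mt-Nd3, a subunit of the membrane arm of complex I, 344 of 345 bases are the same as in the copy, and the substitution that separates them is T3C (the base of mt-Nd3, its position from the 5' end of the transcript, and the base of Gm28438). The first 120 bases of both are shown because this base is the only difference within the 345 aligned bases, and it is in capitals. The mt-Nd3 stretch lies at chrM:9459-9578 on the plus strand and that of Gm28438 at chr1:24613000-24613119 on the minus strand, from GENCODE M21 transcripts on GRCm38.
mt-Nd3: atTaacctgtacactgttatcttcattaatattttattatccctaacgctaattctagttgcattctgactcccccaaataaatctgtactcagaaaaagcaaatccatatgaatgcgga
Gm28438: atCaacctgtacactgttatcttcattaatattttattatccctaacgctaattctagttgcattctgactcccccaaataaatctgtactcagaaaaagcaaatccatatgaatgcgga

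**Figure D2:**
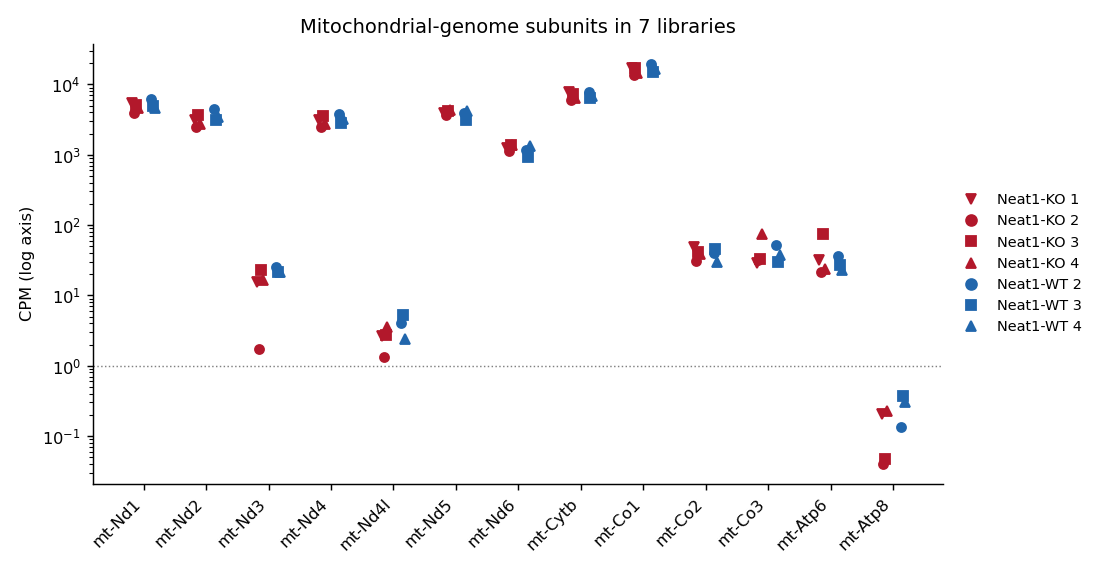
CPM (log axis) of the 13 protein-coding genes of the mitochondrial genome in each of the 7 libraries, with Neat1-KO in red and Neat1-WT in blue; the dotted line marks 1 CPM. The abundant genes sit at 934 CPM or more and the scarce ones at 75.3 or less, and mt-Nd3 is at 1.74 in the library Neat1-KO 2.

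mt-Nd3 was the member with the widest spread. Its level was 15.5, 1.74, 23.1 and 16.6 CPM in Neat1-KO 1 to 4 and 25.4, 21.6 and 21.6 CPM in Neat1-WT 2 to 4. Its copy Gm28438 had 2.34, 27.5, 3.54 and 2.23 CPM in the same Neat1-KO libraries and 3.32, 2.02 and 2.43 CPM in the Neat1-WT libraries. In Neat1-KO 2 the 2 genes thus changed places, the member being low and the copy high, whereas in the other 6 libraries the member exceeded its copy. The log2 fold change of mt-Nd3 was -0.70 (SE 0.48, adjusted p = 0.992). It was -0.32 (SE 0.15) without Neat1-KO 2, and -0.15 (SE 0.16) when the counts of annotated copies were added to the members they match best. Which base the reads of each library carried was not analysed here.

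Single libraries stood out among the other scarce genes too. mt-Co3 had 28.4, 32.0, 32.4 and 75.3 CPM in Neat1-KO 1 to 4 and 51.6, 29.7 and 37.6 in Neat1-WT 2 to 4, with Neat1-KO 4 alone above all others. mt-Atp6, the channel-forming subunit a of ATP synthase, had 31.9, 21.8, 74.2 and 23.9 CPM in Neat1-KO and 36.5, 26.8 and 22.9 in Neat1-WT, with Neat1-KO 3 alone above all others. Without these libraries the log2 fold changes went from 0.08 (SE 0.29) to -0.37 (SE 0.17) for mt-Co3 and from 0.39 (SE 0.35) to -0.17 (SE 0.18) for mt-Atp6. Each library was picked as the highest for its gene, so the move downward follows from the choice and is no result on genotype. mt-Nd4l had 1.34 to 3.50 CPM in Neat1-KO and 2.43 to 5.29 in Neat1-WT (log2 fold change -0.63, SE 0.31), with overlapping libraries. Its value ran from -0.36 (without Neat1-WT 3) to -0.87 (without Neat1-WT 4). In Neat1-KO 2 mt-Nd4l was at 1.34 CPM and its chromosome 1 copy Gm10222 at 4.95, whereas mt-Nd4l exceeded the copy in every other library. Together they had 4.73, 6.29, 5.08 and 5.72 CPM in Neat1-KO 1 to 4 and 6.72, 6.65 and 4.45 in Neat1-WT 2 to 4. mt-Co2 had 30.4 to 48.2 CPM in Neat1-KO and 29.6 to 46.3 in Neat1-WT, and the libraries overlapped over most of both ranges.

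Among the abundant mitochondrial genes, mt-Nd2 was the 1 member with an unadjusted p under 0.05. It had 3082, 2454, 3615 and 2766 CPM in Neat1-KO 1 to 4 and 4411, 3165 and 3426 CPM in Neat1-WT 2 to 4. The highest library was Neat1-WT 2 and the lowest Neat1-KO 2, but Neat1-KO 3 exceeded 2 of the Neat1-WT libraries, so that the groups overlap. The log2 fold change was -0.31 (SE 0.13, edgeR unadjusted p = 0.0366, adjusted p = 0.992), and an exact two-sided permutation test over the 7 libraries gave p = 0.2, where 0.0286 is the smallest p that test allows. As single libraries were left out it ran from -0.15 (SE 0.13, without Neat1-WT 2) to -0.41 (SE 0.12, without Neat1-KO 3). The other 6 abundant genes were mixed in direction, and none had an unadjusted p under 0.05. mt-Nd1 averaged 4737 ± 674 CPM (SD, n = 4) in Neat1-KO and 5251 ± 894 (n = 3) in Neat1-WT, with a log2 fold change of -0.16 (SE 0.12). mt-Co1 averaged 15503 ± 1835 CPM against 17006 ± 2250, with -0.14 (SE 0.11), mt-Nd4 2973 ± 470 against 3280 ± 485, and mt-Cytb 6910 ± 883 against 7069 ± 721.

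mt-Nd5 and mt-Nd6 had positive values that did not pass the test. mt-Nd5 averaged 4015 ± 307 CPM (SD, n = 4) in Neat1-KO and 3725 ± 543 (n = 3) in Neat1-WT (log2 fold change 0.10, SE 0.10). mt-Nd6, the only protein gene on the light strand, averaged 1287 ± 111 against 1136 ± 192 CPM (0.17, SE 0.11). Without Neat1-WT 3 these values were -0.02 and 0.04, and that of mt-Cytb, -0.04 with all libraries, ran from -0.12 to 0.04 as single libraries were left out. The 2 genes overlap at their ends on opposite strands, and whether the counting used strand is not given in the sources used here. The ratio of mt-Nd6 to mt-Nd5 counts ran only from 0.297 to 0.333 over the 7 libraries. By contrast, mt-Nd1 to mt-Nd5 ran from 1.066 to 1.604 and mt-Nd2 to mt-Nd5 from 0.64 to 1.13. The latter ratio was 0.78, 0.68, 0.87 and 0.64 in Neat1-KO 1 to 4 and 1.13, 1.02 and 0.82 in Neat1-WT 2 to 4, with 1 Neat1-KO library above the lowest Neat1-WT library.

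Within the nuclear genome, complex I was the largest group, with 37 members that averaged from 2.14 to 235 CPM. Their log2 fold changes ran from -0.08 to 0.26 with a median of 0.029, and 25 were positive and 12 negative. Ndufs1, the largest core subunit, which holds iron-sulfur clusters of the electron path (chr1:63143596-63176833, minus strand, GRCm38), had 202, 162, 184 and 173 CPM in Neat1-KO and 189, 174 and 178 in Neat1-WT. The Neat1-WT libraries lay inside the range of the Neat1-KO libraries, and the log2 fold change was -0.01 (SE 0.08). Ndufa4 was highest per length in this group by the rule, at 420 RPKM (368 to 537). Although named for complex I, it is now placed with complex IV. It had 243, 168, 183 and 176 CPM in Neat1-KO and 199, 194 and 166 in Neat1-WT. Its paralog Ndufa4l2, which hypoxia induces, had 1.95 to 2.64 CPM in Neat1-KO and 1.73 to 2.12 in Neat1-WT, the largest positive value of the 37 genes (0.26, SE 0.23) but with overlapping libraries. Ndufa4l2 held 0.43% to 0.71% of the summed per-length level of the pair. Ndufs5, an accessory subunit, had the largest negative value at -0.08 (SE 0.10).

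All 4 complex II genes had positive values, between 0.04 and 0.12, and none passed the test. The shared sign did not hold as single libraries were left out, since Sdhd was at -0.03 without Neat1-WT 4 or Neat1-KO 1, and Sdhb was at 0.01 without Neat1-KO 1. Sdha, the flavoprotein that oxidises succinate, had 535, 480, 520 and 512 CPM in Neat1-KO and 501, 485 and 478 in Neat1-WT. This was the tightest member of all, with an SD of 0.062 on the log2 scale within genotypes, and still the groups overlapped at Neat1-KO 2. Sdhb, the iron-sulfur subunit, had 159, 124, 118 and 129 CPM in Neat1-KO and 128, 125 and 109 in Neat1-WT (log2 fold change 0.12, SE 0.11). Sdhd, a membrane anchor, had 100.3, 87.7, 85.1 and 85.4 CPM against 93.1, 89.0 and 77.3. In both genes Neat1-KO 1 was the highest library and Neat1-WT 4 the lowest.

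The 8 nuclear complex III genes had log2 fold changes from -0.03 to 0.08 with a median of 0.023. Uqcrh, the hinge protein that helps cytochrome c dock, was highest per length at 271 RPKM, with 128 to 187 CPM in Neat1-KO and 127 to 160 in Neat1-WT. Uqcr10, a small subunit of the membrane part, had 112, 80.3, 78.99 and 81.7 CPM in Neat1-KO and 87.7, 91.3 and 69.9 in Neat1-WT. Neat1-KO 1 was above all other libraries, and the other 3 Neat1-KO libraries lay within the Neat1-WT range. Its log2 fold change of 0.08 (SE 0.13) was the largest of the 8 genes, and it was -0.06 without Neat1-KO 1. Uqcrb, which binds ubiquinone, had 39.5 to 61.2 CPM in Neat1-KO and 47.0 to 55.0 in Neat1-WT (-0.03, SE 0.13).

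Complex IV has several subunits with tissue-restricted isoforms, and 13 of its nuclear genes were members. Cox4i1, the ubiquitous regulatory subunit, was the highest per length at 681 RPKM (595 to 816), and lies at chr8:120668222-120674207 on the plus strand (GRCm38). Its level was 608, 483, 460 and 487 CPM in Neat1-KO and 532, 537 and 443 in Neat1-WT, with a log2 fold change of 0.01 (SE 0.10). Its lung and hypoxia isoform Cox4i2 made up 0.26% to 0.41% of the per-length sum of both. The heart and muscle isoforms were likewise scarce. Cox6a2 made up at most 0.17% of the sum with Cox6a1, Cox8b 0.13% to 0.69% of that with Cox8a, and Cox7a1 2.99% to 3.73% of that with Cox7a2 and Cox7a2l. Of these, Cox6a2 (0 to 0.37 CPM) and Cox8b (0.18 to 1.32 CPM) fell below the membership floor, as did the testis isoforms Cox6b2 (0.99 to 2.38 CPM, just under the floor in Neat1-WT 2) and Cox7b2, and Cox8c at 0 counts in every library. Cox4i2 (1.47 to 1.95 CPM) lay just inside it. Skeletal muscle markers summed to 2.3 to 3.09 CPM in 6 libraries and 17.6 in Neat1-WT 4, where Cox6a2 had 0 counts.

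By contrast, Cox7a2l, which assembles complexes III and IV into supercomplexes, held 40.6% to 46.7% of the Cox7a sum. It had 175, 145, 141 and 143 CPM in Neat1-KO and 147, 160 and 132 in Neat1-WT. Cox8a had the largest positive log2 fold change of the nuclear genes of the complex (0.12, SE 0.10), with 290, 227, 210 and 226 CPM in Neat1-KO against 217, 227 and 208. Again only Neat1-KO 1 lay outside the Neat1-WT range. Cox7b, on the X chromosome, had the only negative value among the 13 nuclear genes (-0.06, SE 0.13), with 101 to 154 CPM in Neat1-KO and 110 to 133 in Neat1-WT. Cox6a1 and Cox6b1 averaged 216 ± 36.7 and 167 ± 27.9 CPM (SD, n = 4) in Neat1-KO and 209 ± 4.77 and 161 ± 18.7 (n = 3) in Neat1-WT.

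The ATP synthase held the most abundant nuclear member. Atp5b, the catalytic beta subunit, had 1552, 1368, 1292 and 1371 CPM in Neat1-KO and 1437, 1431 and 1256 in Neat1-WT, with 724 RPKM (656 to 810) and a log2 fold change of 0.01 (SE 0.08). The ranges per length of Atp5b and Cox4i1 overlap over libraries. Within libraries Atp5b was the higher except in Neat1-KO 1, where it had 810 RPKM and Cox4i1 816. The ring of subunit c, through which protons pass, is encoded by 3 genes with the same mature protein. Atp5g3 had 207 to 269 CPM in Neat1-KO and 201 to 239 in Neat1-WT, Atp5g1 89.8 to 130 and 93.8 to 106, and Atp5g2 52.2 to 71.0 and 53.5 to 55.4. Atp5g2 had the largest positive log2 fold change of the 17 nuclear genes (0.14, SE 0.10). Per length Atp5g3 held 51.9% to 55.8% of their sum and Atp5g1 22.0% to 26.3%. The share of Atp5g1 is 4.52% to 5.62% if the longest principal transcript of each gene sets the length. A pseudogene copy of Atp5g1, Gm10039 (99.76% identity over 411 bases), had 36.2 to 62.1 CPM, and Atp5g1 and this copy together had 129 to 190 CPM. The level and share of Atp5g1 are therefore those of uniquely mapped reads. The peripheral stalk subunit Atp5f1 had the largest negative value among them (-0.08, SE 0.09), with 254 to 329 CPM in Neat1-KO and 283 to 320 in Neat1-WT. The symbol rule also took Atp5s, a coupling factor that is not a stable subunit, and 1 read-through annotation named Atp5o with 0 counts was left out.

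Summed by complex, the nuclear members had the same highest and the same lowest library in every complex. The 79 genes together had 13760, 11041, 10878 and 11338 CPM in Neat1-KO 1 to 4 and 11875, 11895 and 10402 in Neat1-WT 2 to 4. Neat1-KO 1 exceeded the other libraries and Neat1-WT 4 was the lowest, while the other 5 lay within 10878 to 11895. Complex V held most of this (3814 to 4916 CPM), followed by complex I (2918 to 3894), complex IV (1921 to 2701), complex III (977 to 1316) and complex II (771 to 934). The mitochondrial members had a different order, with 41798, 33004, 42475 and 36886 CPM in Neat1-KO and 47037, 36654 and 40109 in Neat1-WT. Here Neat1-WT 2 was the highest and Neat1-KO 2 the lowest. The mitochondrial to nuclear ratio ran from 2.99 to 3.90 in Neat1-KO and from 3.08 to 3.96 in Neat1-WT, so that the genotypes overlapped in both sums and in their ratio.

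**Figure D3:**
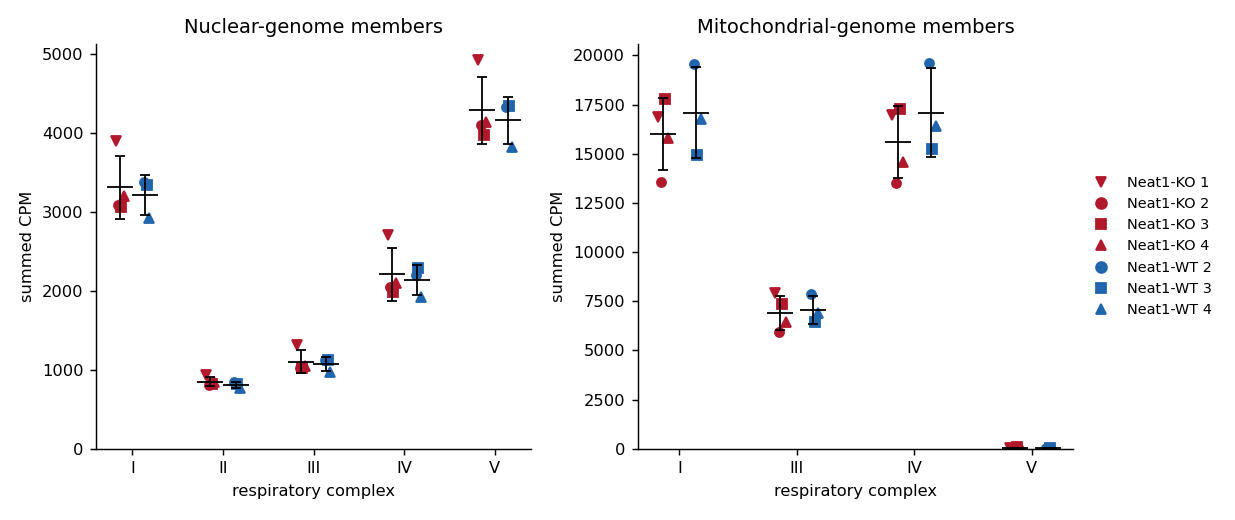
Summed CPM of the members of each complex in every library, nuclear genome on the left and mitochondrial genome on the right; bars give the mean and SD of 4 Neat1-KO (red) and 3 Neat1-WT (blue) libraries. Neat1-KO 1 is the highest nuclear point in all 5 complexes, and in the mitochondrial complexes I and IV Neat1-WT 2 is the highest and Neat1-KO 2 the lowest.

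The median log2 fold change was 0.038 for the nuclear members and -0.0925 for the mitochondrial members, beside 0.0062 for all genes tested. The sign of the nuclear median was not stable. Of the 79 nuclear members 57 had positive values, but without Neat1-KO 1 only 14 did, and the median was -0.072. Without Neat1-WT 4, 25 were positive and the median was -0.033. The mitochondrial median was 0.018 without Neat1-WT 2, and 6 of its 12 members were then positive. Accordingly, neither genome showed a direction that held over all 7 libraries. Without Neat1-KO 1, 4 members had an unadjusted p under 0.05, all of them lower in Neat1-KO (mt-Nd2, Cox7b, Ndufs5 and Atp5f1), where 3.37% of all genes tested in that fit were lower by the same measure, and 0 members were called.

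The nuclear members shared much of their order of libraries. Neat1-KO 1 was the highest library for 75 of the 79, and Neat1-WT 4 the lowest for 45. The 4 exceptions were Ndufa12, Ndufb2, Cox4i2 and Atp5s, named here after their values were seen. Of the other 13226 nuclear protein-coding genes with at least 1 CPM in all libraries, Neat1-KO 1 was the highest for 20.3% and Neat1-WT 4 the lowest for 17.2%. Among the 433 of them with a transcript of up to 800 bases these shares were 55.0% and 33.5%. Among 74 genes of cytosolic ribosomal proteins they were 89.2% and 59.5%. Thus the order of libraries seen in oxidative phosphorylation genes was shared with another set of short, abundant transcripts.

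Measured as the deviation from each gene's mean over libraries (log2 CPM, centred on the median of all genes), the nuclear members stood at a median of 0.31 for Neat1-KO 1 and -0.155 for Neat1-WT 4. Short transcripts of other genes, up to 800 bases, had 0.19 and -0.11, and the ribosomal protein genes 0.28 and -0.17. Within classes of length the members still stood higher in Neat1-KO 1 than other genes. The medians there were 0.32 for 43 members of up to 800 bases against 0.19, 0.28 for 23 members of over 800 to 1600 bases against 0.13, and 0.19 for 13 members of over 1600 to 3200 bases against 0.04. Transcripts over 6400 bases went the other way, with -0.16 and 0.11. The nuclear members are short, with a median transcript of 742 bases against 2964.5 for the other genes. Transcript length therefore moved with this order of libraries, and its part in the members' levels was not tested beyond a fit with a length trend removed from each library, in which the nuclear median was 0.010 and 45 of 79 values were positive.

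**Figure D4:**
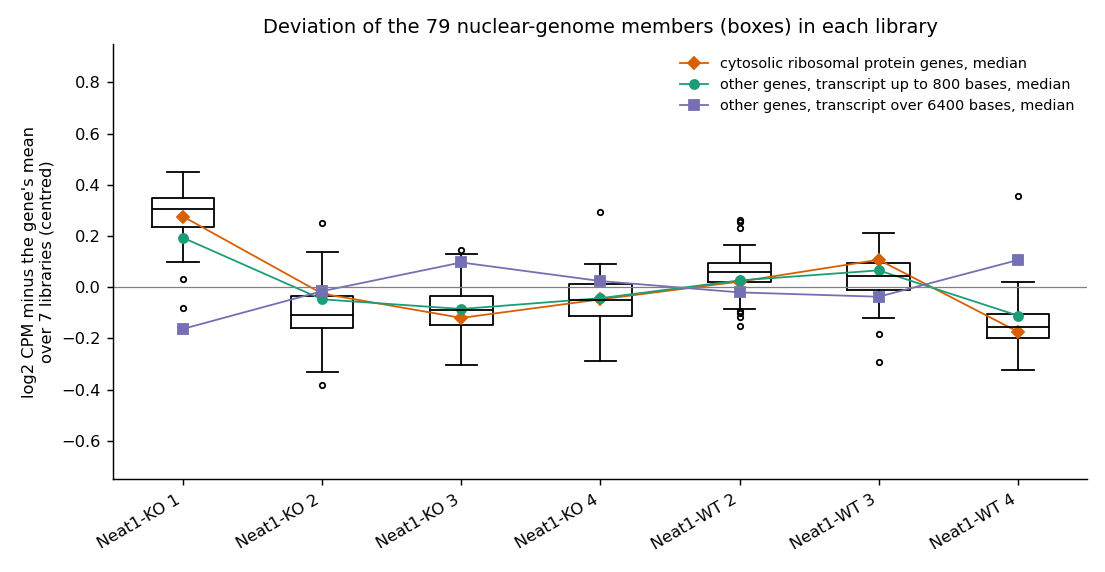
Deviation of the log2 CPM of the 79 nuclear members from their own mean over libraries (boxes show the quartiles, whiskers reach 1.5 times the box, and circles are single genes), with the medians of other gene groups as lines. The boxes follow the lines of short transcripts and ribosomal protein genes, with the highest median (0.31) in Neat1-KO 1, while long transcripts mirror them.

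Members with pseudogene copies were frequent. In all, 45 members (34 nuclear and 11 mitochondrial) had at least 1 annotated pseudogene with at least 90% identity over at least 50% of the shorter sequence. Of the nuclear ones, 15 had a copy that reached 1 CPM in some library. Ndufa12, an accessory subunit of complex I, had 48.3, 52.5, 47.5 and 40.7 CPM in Neat1-KO and 43.3, 42.0 and 60.1 in Neat1-WT. It was highest in Neat1-WT 4, the library where most other members were lowest. Its copy Gm15920 (99.5% identity over 402 bases) had 24.9 to 45.5 CPM in 6 libraries but 13.3 in Neat1-WT 4. With the copy added, Neat1-KO 1 was the highest library (93.8 CPM) and Neat1-WT 4 the lowest (73.4), as for most nuclear members. Gm6969, a copy of Cox7a2l, had 0.79 to 1.73 CPM in 6 libraries and 23.9 in Neat1-WT 2, while Cox7a2l itself was not low there. These pairs were picked after their values were seen.

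**Figure D5:**
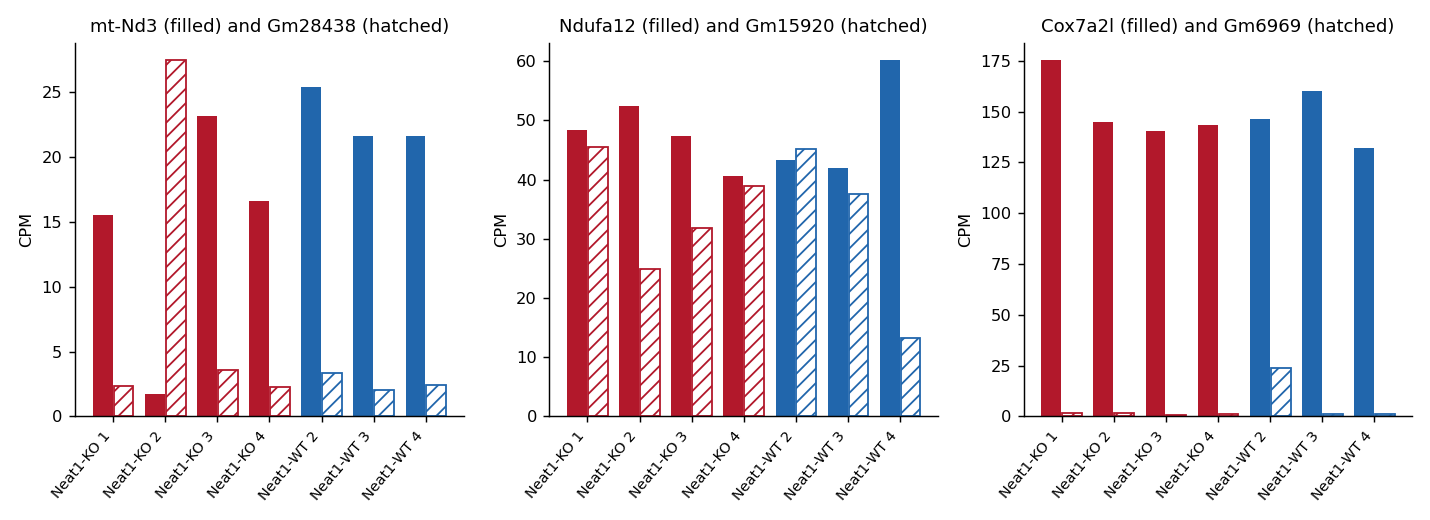
CPM of mt-Nd3, Ndufa12 and Cox7a2l (filled bars) and of an annotated copy of each (hatched bars) in the 7 libraries, Neat1-KO in red and Neat1-WT in blue. In 1 library of each panel the copy departs from its level elsewhere: Neat1-KO 2 for Gm28438, Neat1-WT 4 for Gm15920 and Neat1-WT 2 for Gm6969.

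The sequences upstream of the starts of the nuclear members were searched for sites of factors known to drive respiratory genes. Of the 79 genes, 63 had at least 1 RefSeq promoter window (250 bases before the start and 50 after it, GRCm38.p6). Those without one included Ndufs1 and Cox4i1. Shares are of genes with a match in any of their windows. On either strand, the NRF1 core GCGCATGC was found for 15.9% of these 63 members and for 3.05% of all 27025 genes. The YY1-type site AAGATGGC was in 14.3% against 3.19%, the ETS site CCGGAAGT of the kind bound by GABPA in 7.94% against 4.31%, and the ERR-type site TCAAGGTCA in 3.17% against 0.47%. At least 1 of the 4 was found for 25 of the 63 members (39.7%, against 10.4% of all genes). The 27025 genes were not limited to those expressed in these libraries. These are counts of letters and not of bound sites, and their part in the members' levels was not tested.

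Uqcrh, Sdhb, Atp5g3 and Cox6a1, named above, each held such a match upstream of the start, and 100 bases around each are shown, so that the letters counted can be seen in place, with the match in capitals. Uqcrh holds the ETS letters in reverse orientation from 11 bases before its start (chr4:116075071-116075170, minus strand). Sdhb holds the NRF1 letters in reverse orientation from 54 bases before (chr4:140961171-140961270, plus strand). Atp5g3 holds the ERR letters in reverse orientation from 52 bases before (chr2:73911327-73911426, minus strand), and Cox6a1 the NRF1 letters in forward orientation from 162 bases before (chr5:115349067-115349166, minus strand).
Uqcrh: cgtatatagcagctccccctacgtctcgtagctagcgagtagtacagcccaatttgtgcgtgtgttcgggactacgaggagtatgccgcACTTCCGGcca
Sdhb: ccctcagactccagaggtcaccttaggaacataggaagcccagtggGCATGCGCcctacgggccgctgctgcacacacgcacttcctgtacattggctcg
Atp5g3: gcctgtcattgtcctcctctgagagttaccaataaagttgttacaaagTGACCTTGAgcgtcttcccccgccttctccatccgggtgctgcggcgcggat
Cox6a1: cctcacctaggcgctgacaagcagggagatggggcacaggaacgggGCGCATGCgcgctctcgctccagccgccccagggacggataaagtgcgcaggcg

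The 16 regulators of mitochondrial biogenesis tested, among them the factors that bind these sites, had 0 called genes and 0 with an unadjusted p under 0.05 in either direction (median log2 fold change -0.0041). The same counts were 0 for the 30 genes of mitochondrial DNA maintenance, transcription and RNA processing, and for the 17 subunits and electron carriers outside the symbol rule, such as Cyc1 and Cycs. Among 53 assembly factors, 0 were called and 1 had an unadjusted p under 0.05, in the lower direction. This was Coa4, an assembly factor of complex IV named after its values were seen, with 3.07 to 5.15 CPM in Neat1-KO and 5.65 to 5.77 in Neat1-WT (log2 fold change -0.55, SE 0.19, adjusted p = 0.983 by edgeR). Of 19 genes of the tricarboxylic acid cycle, which feeds electrons to complexes I and II, 0 were called and 1 had an unadjusted p under 0.05. This was Suclg2, the GTP-forming subunit of succinate-CoA ligase, with 30.6, 29.5, 30.7 and 28.0 CPM in Neat1-KO and 24.7, 23.4 and 25.5 in Neat1-WT, in which the groups did not overlap (log2 fold change 0.27, SE 0.085, unadjusted p = 0.00846, adjusted p = 0.929 by edgeR). Of 19 glycolytic genes, 0 were called and 1 had an unadjusted p under 0.05, Eno1 (enolase), with 531 to 633 CPM in Neat1-KO and 437 to 546 in Neat1-WT (0.30, SE 0.092, adjusted p = 0.891 by edgeR).

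Markers of cell types were set beside these values. The 6 motor neuron markers, Chat among them, all had negative log2 fold changes (median -0.25), with 0 called. An unadjusted p under 0.05 was found for 3 of them, Slc5a7 (-0.40, SE 0.14), Slc18a3 (-0.30, SE 0.089) and Prph (-0.20, SE 0.094), of which the first and last were named after their values were seen. Together the 6 summed to 280 to 340 CPM in Neat1-KO and 361 to 424 in Neat1-WT. The 6 oligodendrocyte markers were also all negative (median -0.14), with 33700 to 36400 CPM against 34500 to 42300, and 1 of them, Mobp, had an unadjusted p under 0.05 (-0.17, SE 0.059), also named after its values were seen. Markers of astrocytes (4840 to 6390 against 5240 to 6410 CPM) and microglia (167 to 250 against 165 to 233 CPM) overlapped, as did those of neurons at large (9880 to 11400 against 10500 to 11800 CPM) and endothelium (124 to 138 against 115 to 153 CPM). Markers of tissue at the edge of the dissection varied between libraries, with sums of 62.6 to 187 CPM for meninges and 34.6 to 69.9 CPM for sensory ganglia. All 5 meningeal markers had positive log2 fold changes (median 0.31), 1 of them with an unadjusted p under 0.05 (Lum, 0.66). Of the 3 sensory ganglion markers tested 2 were negative, 1 of them with an unadjusted p under 0.05 (Calca, -0.38), and of the 2 skeletal muscle markers tested both were negative, 1 likewise (Acta1, -1.45). These 3 genes were named after their values were seen. Erythrocyte markers summed to 5.82 to 13.6 CPM. The part of these cell types in the members' levels was not tested.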

How the data were processed

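Poly(A) RNA of whole cervical spinal cord was sequenced by the authors from both ends. Per the methods and the processing notes, reads were trimmed with Trimmomatic 0.38, aligned to mm10 with HISAT2 2.1.0 and counted with featureCounts 1.6.3, unique reads only. The annotation release and strand setting are not given in the sources used here. The authors deposited whole-number counts per gene with no normalization. Names came from GENCODE M21, which names 55227 of the 55487 rows, and the other 260 hold 0.00446% of the counts.

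Levels are CPM of the column total. RPKM divides these by the length of the principal transcript (the median where several are marked). Genotypes were compared with edgeR 4.0.16 (R 4.3.3): filterByExpr, TMM factors (0.991 to 1.008) and the quasi-likelihood test over all 18449 genes, with standard errors from the F statistic. Overlap of libraries and the permutation test used TMM-scaled CPM, the latter as log2 with 0.5 added. Copies came from BLAST 2.17.0. Alternatives included DESeq2 1.42.0 and limma-voom 3.58.1. The fit was tested on counts drawn with known fold changes. P-values measure the spread between libraries only.

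Members and lists were chosen with earlier results of these data known. Named genes are the 4 markers, all mitochondrial genes, isoform pairs, the highest level and the largest positive and negative values in each complex, members called, or not overlapping with an unadjusted p under 0.05, and the widest spread in each genome. From other lists, genes with an unadjusted p under 0.01 are named.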

Additional observations from a re-analysis of the deposited data

Results flagged for a closer look

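Named members and summed levels were examined in the 4 Neat1-KO libraries for 1 library far from the other 3 (a gap past the 95% critical value of Dixon's test, which chance gives for about 1 in 20 groups). Of 61 values, 8 passed, and the values share libraries and genes. In 7 of these the library was Neat1-KO 1. The summed nuclear members had 13760 CPM there and 10880 to 11340 in the other 3. By complex, the sums in Neat1-KO 1 were 3894 CPM for nuclear complex I, 1316 for complex III and 2701 for complex IV, each above the other Neat1-KO libraries. The single genes were Sdhd (100.3 CPM), Uqcr10 (112.4 CPM) and Cox7a2l (175.2 CPM). The eighth was mt-Co3, with 75.33 CPM in Neat1-KO 4 and 28.43 to 32.42 in the others.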

How the results depend on the processing

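No member was called under any alternative tried but 1. With no filter on low counts, 124 genes were called in place of 6 and 1 member was among them, mt-Nd3 (log2 fold change -0.71, SE 0.13, adjusted p = 1.6e-05 by edgeR), and 7 members had an unadjusted p under 0.05, where 1 had with the filter. The cause was not tested. In this paragraph, counts at an unadjusted p under 0.05 and of members not overlapping stand without their shares over all genes. They are therefore no result about the members. DESeq2 called 27 genes and 0 members. With a robust dispersion 0 members had an unadjusted p under 0.05, and with Xist as a covariate 2 had (Xist had 0 to 4 counts in every library). Libraries with the same replicate number in both genotypes had correlations of -0.19, -0.112 and -0.0177, and other pairs had -0.191 to 0.156. So few pairs cannot settle whether the replicate number pairs the libraries. With the number as a block, 39 genes were called, 0 members among them, and 2 members had an unadjusted p under 0.05. Leaving out 1 library at a time gave 3 to 31 called genes, with 31 without Neat1-KO 1, 11 without Neat1-WT 4 and 3 without Neat1-WT 3, 0 called members, 0 to 4 members with an unadjusted p under 0.05 and 0 to 4 not overlapping. The nuclear median was -0.066 with the block and -0.059 with the covariate. Replicate number 1 occurs only in Neat1-KO, so the block takes Neat1-KO 1 out of the comparison. The covariate rests on the 0 to 4 counts of Xist. Neither value is a separate check of the sign. Of the 38 named genes tested 0 were called with all libraries and the filter, and their signs changed for 13 with the block, 14 with the covariate and up to 13 when 1 library was left out. The length offset and the added copies were chosen after seeing the data and changed the sign for 2 and 1. Depth limits the members near 1 CPM, whose intervals were the widest in the nuclear genome.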
